A study of Mus musculus with 6 samples.

Results

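The 36 cell cycle and proliferation genes described here were chosen by symbol, as genes of deoxyribonucleic acid (DNA) replication and mitosis, from the 54532 genes of the deposited expression table. All 36 had a row. The RNA sequenced was that of primary macrophages from METRNL+/+ mice (wild type, WT) and from METRNL-/- mice (knockout, KO). The gene named in these genotypes encodes meteorin-like, a secreted protein. Cells of both genotypes had been cultured and then challenged in vitro with the fungus *Candida albicans* for 6 h, so every library comes from challenged cells and none from unchallenged ones. Each genotype had 3 libraries. Mouse strain, sex, age, the tissue that gave the macrophages, the kind of knockout allele and whether animals were pooled are not given in these sources. Nothing in the labels ties the 3 libraries of a genotype to separate animals or cultures. The p-values thus weigh the difference between genotypes against the spread of these libraries, which may be only technical.

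The unit is FPKM, which is meant to scale reads for gene length and for library depth. Levels of genes can then be compared within a library. The FPKM of a library summed to between 311409 and 412048, so the libraries do not share 1 total and comparisons between them depend on the scaling. The reads behind the values were recovered as whole numbers and came to between 11026529 and 15724897 reads in genes per library. The deposited FPKM did not follow these depths alone. *Cdkn1a* had 13055 reads and 229 FPKM in WT replicate 1, with 14309247 reads in genes. In KO replicate 1 it had 15266 reads and 336 FPKM, with 14772746 reads in genes. Relative to reads in genes, KO replicate 1 was thus scaled higher than WT replicate 1. The reason was not tested. *Metrnl* itself had a mean of 75.5 ± 15.9 FPKM in WT against 59.2 ± 6.95 FPKM in KO (SD, n = 3 per genotype; limma adjusted p = 0.181). A value per gene cannot show which exons were read, so the labels are not checked by it, and KO here means the libraries labelled KO. WT replicate 1 and KO replicate 1 differed most from the rest of their groups. The ratio of chi-square to degrees of freedom, which is 1 for sampling noise alone, was 2.30 between KO replicates 2 and 3 and 7.10 between WT replicates 2 and 3, and from 39.6 to 59.4 between a replicate 1 library and its group.

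A cell that divides passes from G1, where D-type cyclins with CDK4 or CDK6 release the E2F transcription factors from the retinoblastoma protein, into S phase, where the MCM helicase opens the DNA for copying. Cyclin B with CDK1 then drives mitosis, in which Aurora and Polo kinases, the spindle checkpoint and the centromere proteins part the chromosomes. Inhibitors such as p21 and p27 hold the kinases back. Mature macrophages mostly rest outside the cycle, although tissue-resident ones can renew themselves by division.

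Markers of other cell types moved with genotype and belong beside every result. The summed level of 13 B cell markers was 600.2 to 778 FPKM in the WT libraries and 31.5 to 40.1 FPKM in the KO libraries, and all 12 that were tested fell. Of the markers tested, 4 of 4 for T and NK cells, 5 of 7 for dendritic cells, 3 of 9 for neutrophils, 3 of 6 for mesothelial cells and fibroblasts and 4 of 4 for mast cells also fell. The sum of 10 macrophage markers was 4853 to 5661 FPKM in WT and 8644 to 9328 FPKM in KO, of which *Lyz2* (mean 2204 FPKM in WT and 4431 FPKM in KO) and *Cd14* (1799.7 and 2674 FPKM, not called) held most. Of the 10, 5 rose, 1 fell and 4 did not pass, where 15.7% of all genes tested rose and 12.4% fell. The marker that fell was *Fcgr1*, which encodes an Fc receptor, by 3.83-fold (limma adjusted p = 0.00419). The part of these other cells in the results on cell cycle genes was not tested, and in bulk samples fewer cells of a type cannot be told apart from less RNA per cell. Of 5 erythroid markers 3 had no read in any library. The 7 retinal markers, included because the extraction text names retinas, summed to between 0.659 and 1.32 FPKM.

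The 36 genes spanned a wide range of levels, from 0.109 FPKM for *Plk1* in WT replicate 3 to 336 FPKM for *Cdkn1a* in KO replicate 1. The inhibitor gene *Cdkn1a* and the tubulin gene *Tubb5* were the most abundant, followed by the clamp gene *Pcna* and the kinase gene *Cdk4*, and these 4 alone had a mean of at least 20 FPKM. A further 13 lay between 2 and 20 FPKM and 12 between 0.5 and 2 FPKM, and 7 were below 0.5 FPKM. Of the 12 genes of G2 and mitosis only *Mki67* exceeded 2 FPKM. All 36 had reads in all 6 libraries, and the fewest were the 3 reads of *Plk1* in WT replicate 3.

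**Figure D1:**
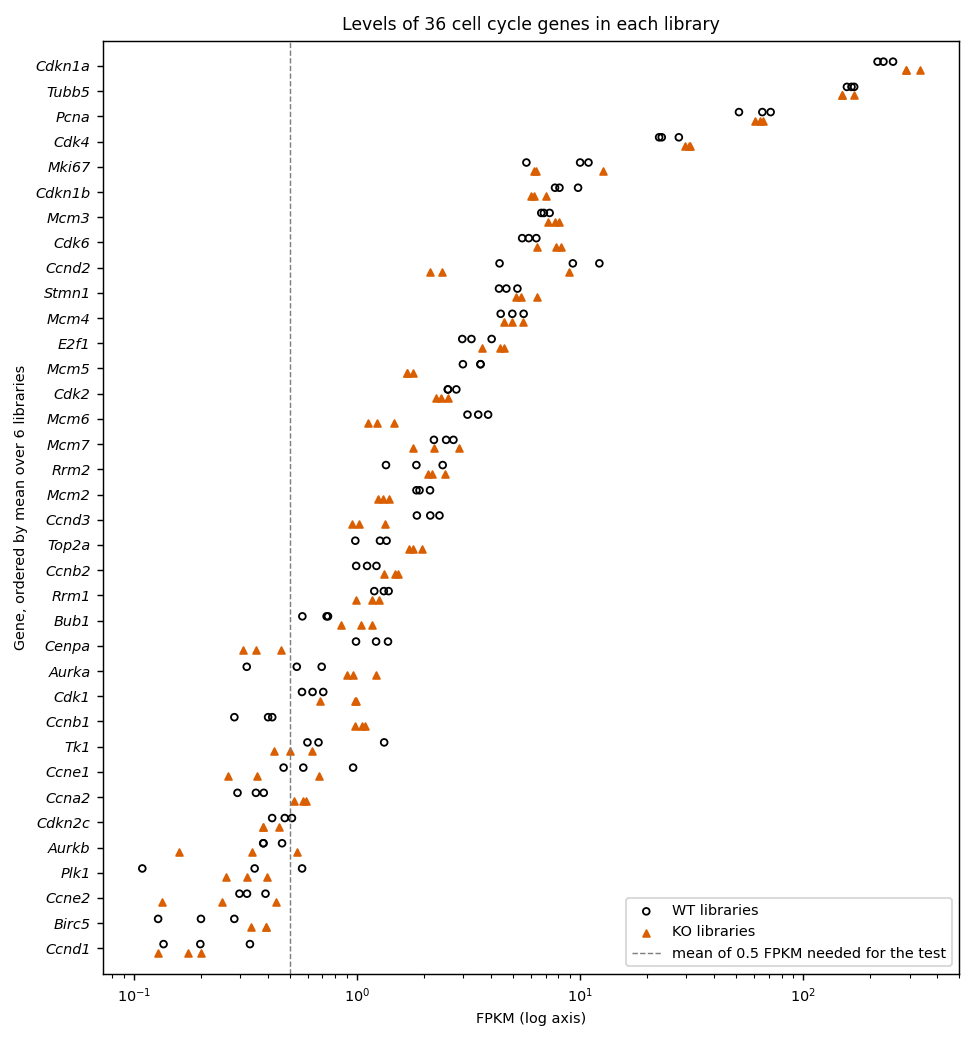
Level of each of the 36 genes in FPKM on a log axis, with open circles for the 3 WT libraries, triangles for the 3 KO libraries and genes ordered by their mean over the 6 libraries. *Cdkn1a* and *Tubb5* stand highest, most genes of mitosis lie near or below 2 FPKM, and the dashed line marks the mean of 0.5 FPKM needed for the test.

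Genotype was tested for the 29 genes whose mean over the 6 libraries reached 0.5 FPKM, within a fit over all 11689 such genes. The 10 that passed did not go one way: *Cdk4*, *Cdkn1a*, *Ccnb1* and *Top2a* rose in KO, and *Ccnd3*, *Cdkn1b*, *Mcm2*, *Mcm5*, *Mcm6* and *Cenpa* fell (limma on log2(FPKM + 1), Benjamini-Hochberg adjusted p below 0.05). The 4 that rose are 13.8% of the 29, where 15.7% of all genes tested rose, and the 6 that fell are 20.7%, where 12.4% of all genes fell. The 10 together are 34.5%, near the 28.0% called among all genes, so the count is not a result about these genes as a set. The median log2 fold change of the 29, KO minus WT in log2(FPKM + 1), was 0.01, against 0.03 over all genes tested. Values of the 2 groups did not overlap for 14 of the 29, or 48.3%, against 45.6% of all genes tested. None of the 10 changed by 2-fold on the log2(FPKM + 1) scale, where 16.2% of all called genes did. Changes of low genes are understated on that scale, whereas the ratio of mean FPKM, given here as a fold, reached 3.22 for *Cenpa*.

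Library scaling and single libraries bore on these calls. In TPM, which gives every library the same sum, 542 of the same 11689 genes rose and 1161 fell, against 1833 and 1445 with the deposited scaling, and the calls among the cell cycle genes became 1 higher (*Ccnb1*) and 4 lower (*Ccnd3*, *Mcm5*, *Mcm6* and *Cenpa*). In limma-voom, a fit to the recovered reads, 669 genes rose and 1891 fell, and 1 of the cell cycle genes rose and 6 fell. *Mcm5*, *Mcm6*, *Cenpa* and *Ccnb1* were called in each of the 6 fits that left out 1 library. The other 6 calls were each lost in at least 1 of those fits, as given with each gene. Over all genes tested, the calls went from 3278 to between 1763 and 3018 in those fits. The exons of 8 of the 36 genes share bases with a protein-coding gene on the opposite strand (*Ccnd1*, *Ccnd3*, *Cdk4*, *Ccne2*, *Cdk2*, *Mcm7*, *Tk1* and *Ccna2*), and reads of such pairs cannot be told apart without strand.

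**Figure D2:**
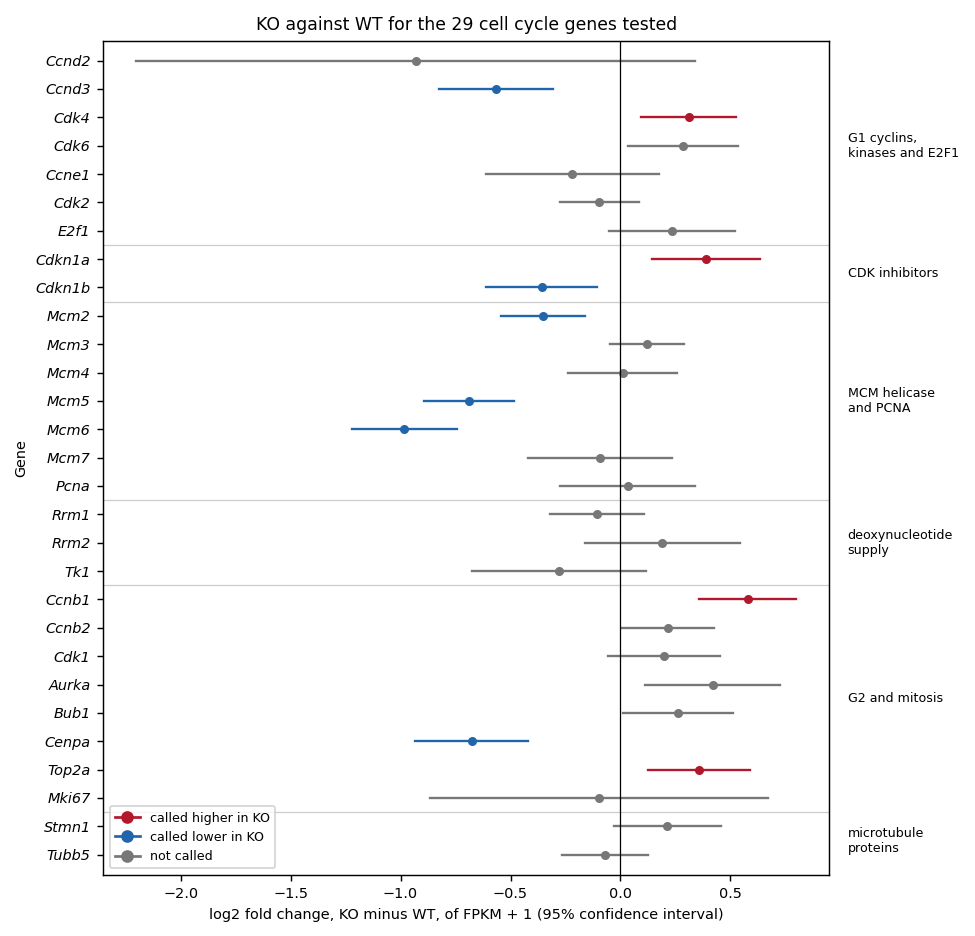
Log2 fold change of FPKM + 1, KO minus WT, with its 95% confidence interval for the 29 genes tested, in blocks by role. The 4 genes in red rose, the 6 in blue fell, and the intervals of *Ccnd2* and *Mki67* are the widest.

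Of the 7 G1 genes tested, 1 rose and 1 fell: the catalytic subunit gene *Cdk4* rose slightly and the cyclin gene *Ccnd3* fell. These 2 are 28.6% of the 7, near the 28.0% called among all genes tested. *Cdk4* (ENSMUSG00000006728, chromosome 10, 127063534 to 127067920, GRCm38, plus strand), the kinase partner of the D-type cyclins, was at 27.7, 22.6 and 23.2 FPKM in WT replicates 1 to 3 and at 29.6, 31.1 and 30.9 FPKM in KO replicates 1 to 3. The 3 KO values lay above the 3 WT values, with WT replicate 1 closest to them. The rise was 1.25-fold (limma log2 change 0.31 ± 0.09 SE, adjusted p = 0.0462). It was called without WT replicate 1 (adjusted p = 0.0127) but not without WT replicate 2 (0.120), WT replicate 3 (0.138), KO replicate 1 (0.0698), KO replicate 2 (0.136) or KO replicate 3 (0.134), nor in TPM (0.399) or with quantile normalization (0.290). Its exons share 641 bases with exons of *Tspan31* on the opposite strand, and those of *Ccnd3* share 361 with *Bysl*. Whether reads were counted by strand is not given in these sources.

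The 3 D-type cyclins differed in level and in behaviour. *Ccnd3* (chromosome 17, 47505051 to 47599691) was at 1.86, 2.34 and 2.13 FPKM in WT and at 1.34, 1.02 and 0.950 FPKM in KO, with no overlap. It fell 1.91-fold (limma log2 change -0.57 ± 0.11 SE, adjusted p = 0.0121), and the call was lost only without KO replicate 2 (adjusted p = 0.0504) among the 6 libraries left out in turn. *Ccnd2* (chromosome 6, 127125162 to 127152193), the most abundant of the 3, varied widely within both groups. It was at 4.35, 12.2 and 9.28 FPKM in WT replicates 1 to 3 and at 8.89, 2.12 and 2.40 FPKM in KO replicates 1 to 3. WT replicate 1 and KO replicate 1 each lay far from their groups, in opposite directions, and the groups overlapped. *Ccnd2* did not pass with all libraries (log2 fold change -0.93 ± 0.53 SE, 95% confidence interval -2.20 to 0.34, limma adjusted p = 0.239). It was called as lower without KO replicate 1 (log2 fold change -1.46, adjusted p = 0.0447) and without the replicate 1 library of each group (-1.84, 0.0022). These fits leave out libraries that lay far from their groups, so a larger fall had to follow. The latter fit keeps only replicates 2 and 3 of each genotype. *Ccnd1*, the cyclin of many dividing tissue cells, had the lowest mean of the 36 in FPKM, with 44 reads in WT and 34 in KO in all, while *Plk1* had the fewest reads.

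The other G1 genes did not pass. *Cdk6*, the second partner of the D-type cyclins, was at 5.50 to 6.37 FPKM in WT and 6.39 to 8.22 FPKM in KO, just without overlap (limma adjusted p = 0.0875). It was called as higher without KO replicate 1 (adjusted p = 0.0276) and without the replicate 1 library of each group (0.0147). *E2f1*, an activator of S phase genes, was at 2.96 to 4.01 FPKM in WT and 3.62 to 4.58 FPKM in KO (adjusted p = 0.192), and was called as higher only without the replicate 1 library of each group (0.0226) among the alternatives run. *Cdk2*, which acts with cyclin E at the start of S phase, had a log2 fold change of -0.10 with a 95% confidence interval of -0.28 to 0.08. The cyclin E genes *Ccne1* and *Ccne2* were scarce, with 70 and 47 reads over the WT libraries and 51 and 43 over the KO libraries.

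The 2 inhibitor genes that could be tested went opposite ways. *Cdkn1a* (ENSMUSG00000023067, chromosome 17, 29090976 to 29100727), which encodes the inhibitor p21, was at 229, 216 and 253 FPKM in WT replicates 1 to 3 and at 336, 290.5 and 288.5 FPKM in KO replicates 1 to 3. All KO libraries lay above all WT libraries. The rise was 1.31-fold, from 233 ± 18.9 to 305 ± 26.8 FPKM (SD, n = 3 per genotype; limma log2 change 0.39 ± 0.10 SE, adjusted p = 0.0332). It was lost when any 1 library was left out (adjusted p from 0.0523 to 0.0881) and in TPM (0.0803), with the log2 fold change staying between 0.32 and 0.45 when a library was left out. *Cdkn1b* (chromosome 6, 134920401 to 134925513), which encodes the inhibitor p27, was at 8.08, 9.80 and 7.72 FPKM in WT and at 7.04, 6.01 and 6.20 FPKM in KO, again without overlap. It fell 1.33-fold (log2 fold change -0.36 ± 0.10 SE, adjusted p = 0.0474). That call was kept without KO replicate 1 (0.0465) and lost without any other 1 library, at up to 0.145 without KO replicate 2, and in TPM (0.0667). The ratio of *Cdkn1a* to *Cdkn1b*, both in FPKM, was 22.0 to 32.8 in the WT libraries and 46.5 to 48.3 in the KO libraries. With 1 gene higher and the other lower in KO, both without overlap, this ratio had to separate the groups. *Cdkn2c*, which encodes the CDK4 and CDK6 inhibitor p18, was below the filter, at 0.416 to 0.511 FPKM in WT and 0.377 to 0.447 FPKM in KO.

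The smallest adjusted p-values among the 29 genes were in the MCM helicase, the ring of 6 subunits, MCM2 to MCM7, that is loaded on DNA before replication. *Mcm6* and *Mcm5* fell and *Mcm2* fell less, while *Mcm3*, *Mcm4* and *Mcm7* did not pass. For the 2 with the largest fall, the 250 bases before the start of transcription in RefSeq (GRCm38.p6) are shown in the direction of the gene, with 2 kinds of match in capitals: the E2F-type motif TTTNNCGC and the CCAAT box, each on either strand. *Mcm5* is at chr8:75109259-75109508 on the plus strand and *Mcm6* at chr1:128359706-128359955 on the minus strand.
Mcm5: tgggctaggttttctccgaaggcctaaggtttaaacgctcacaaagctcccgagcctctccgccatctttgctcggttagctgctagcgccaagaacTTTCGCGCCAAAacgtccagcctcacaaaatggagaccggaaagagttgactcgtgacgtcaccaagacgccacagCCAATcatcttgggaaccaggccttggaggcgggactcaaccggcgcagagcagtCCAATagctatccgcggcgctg
Mcm6: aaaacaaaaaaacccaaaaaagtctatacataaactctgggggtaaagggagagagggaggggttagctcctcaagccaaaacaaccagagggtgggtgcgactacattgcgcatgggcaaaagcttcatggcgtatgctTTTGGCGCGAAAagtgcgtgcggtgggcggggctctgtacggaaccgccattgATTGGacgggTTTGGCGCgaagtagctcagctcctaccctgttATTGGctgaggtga
Each holds E2F-type matches, 2 that overlap in *Mcm5* and 3 in *Mcm6*, of which 2 overlap, and each holds 2 CCAAT matches.

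*Mcm6* (ENSMUSG00000026355, chromosome 1, 128331590 to 128359664, minus strand) was at 3.13, 3.49 and 3.87 FPKM in WT replicates 1 to 3 and at 1.12, 1.47 and 1.23 FPKM in KO replicates 1 to 3. The lowest WT library was above the highest KO library by more than the whole KO range. *Mcm6* fell 2.75-fold, from 3.50 ± 0.371 to 1.27 ± 0.176 FPKM (SD, n = 3 per genotype; limma log2 change -0.98 ± 0.10 SE, adjusted p = 0.00141), resting on 652 reads in WT and 261 in KO. *Mcm5* (ENSMUSG00000005410, chromosome 8, 75109569 to 75128439, plus strand) was at 2.98, 3.57 and 3.58 FPKM in WT and at 1.78, 1.68 and 1.67 FPKM in KO. The KO libraries agreed closely and lay below every WT library, and the fall was 1.97-fold (log2 fold change -0.69 ± 0.08 SE, adjusted p = 0.00276). With each library in turn left out the adjusted p stayed between 0.00353 and 0.0105 for *Mcm6* and between 0.00403 and 0.0175 for *Mcm5*.

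*Mcm2* (chromosome 6, 88883474 to 88898780) was at 1.85, 2.12 and 1.91 FPKM in WT and at 1.25, 1.38 and 1.31 FPKM in KO, with no overlap. It fell 1.49-fold (limma log2 change -0.35 ± 0.08 SE, adjusted p = 0.0204). Its call did not hold in TPM (adjusted p = 0.0736), with quantile normalization (0.0602), or when WT replicate 2 (0.0590), WT replicate 3 (0.0585), KO replicate 2 (0.0582) or KO replicate 3 (0.0712) was left out. *Mcm3* and *Mcm4*, the most abundant subunit genes, gave log2 fold changes of 0.12 (95% confidence interval -0.05 to 0.29) and 0.01 (-0.24 to 0.26), and *Mcm7* gave -0.09 (-0.42 to 0.23), with signs that turned under at least 1 of TPM, quantile normalization and limma-voom. The exons of *Mcm7* overlap those of *Ap4m1* and *Cops6* on the opposite strand and hold the hairpins of *Mir25* and *Mir93*. Within each library the ratio of *Mcm6* to *Mcm3*, both in FPKM, was 0.455 to 0.530 in WT and 0.145 to 0.204 in KO, and that of *Mcm5* to *Mcm3* was 0.434 to 0.533 in WT and 0.208 to 0.234 in KO. For *Mcm2* to *Mcm3* it was 0.261 to 0.317 in WT and 0.161 to 0.193 in KO. The ratios of *Mcm4* to *Mcm3* (0.603 to 0.834 in WT and 0.567 to 0.717 in KO) and of *Mcm7* to *Mcm3* (0.321 to 0.404 and 0.221 to 0.369) overlapped between the groups. Such a ratio does not depend on how the library was scaled.

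**Figure D3:**
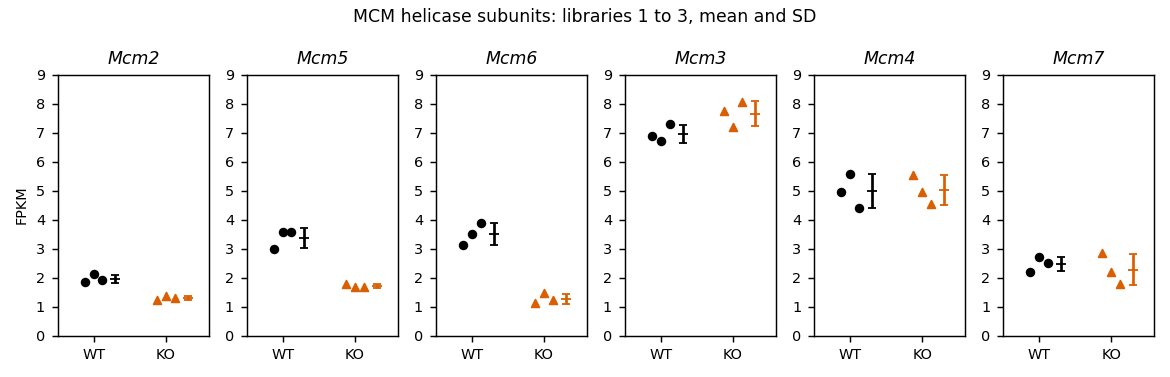
FPKM of the 6 MCM subunit genes in WT libraries 1 to 3 (circles) and KO libraries 1 to 3 (triangles), with mean and SD beside them on a common axis from 0. *Mcm2*, *Mcm5* and *Mcm6* lie lower in every KO library than in any WT library, and *Mcm3*, *Mcm4* and *Mcm7* overlap.

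The genes of the replication clamp and of deoxynucleotide supply did not pass. *Pcna* (chromosome 2, 132249162 to 132253314), whose product slides along DNA with the polymerase and also serves DNA repair, was at 71.5, 51.6 and 65.6 FPKM in WT and at 60.8, 64.3 and 66.3 FPKM in KO. Its WT libraries spanned the whole KO range, and the log2 fold change was 0.03 with a 95% confidence interval of -0.27 to 0.34. *Rrm1* and *Rrm2*, the subunits of ribonucleotide reductase, were at 0.994 to 1.39 and 1.35 to 2.48 FPKM over the 6 libraries, with log2 fold changes of -0.11 and 0.19. *Tk1*, thymidine kinase, had 1.32 FPKM in WT replicate 2 and 0.424 to 0.672 FPKM in the other 5 libraries (log2 fold change -0.28, limma adjusted p = 0.257).

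Of the 12 genes of G2 and mitosis 8 were tested, of which *Ccnb1* and *Top2a* rose and *Cenpa* fell, at levels below 2 FPKM. The 2 that rose are 25.0% of the 8, where 15.7% of all genes tested rose. The 1 that fell is 12.5%, where 12.4% of all genes fell. Together they are 37.5%, against 28.0% called among all genes. The groups did not overlap for 6 of the 8, or 75.0%, against 45.6% of all genes tested. The promoters of the 2 genes that rose are shown as above, from RefSeq (GRCm38.p6), *Ccnb1* at chr13:100786487-100786736 and *Top2a* at chr11:99024190-99024439, both on the minus strand. Capitals mark CCAAT boxes and the motif TTTGAA of the cell cycle homology region, each on either strand.
Ccnb1: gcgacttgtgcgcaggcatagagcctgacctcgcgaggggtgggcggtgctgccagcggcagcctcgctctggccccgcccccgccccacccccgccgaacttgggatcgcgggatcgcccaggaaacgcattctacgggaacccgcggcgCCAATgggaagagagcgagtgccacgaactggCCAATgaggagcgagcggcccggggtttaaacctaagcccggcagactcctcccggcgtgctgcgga
Top2a: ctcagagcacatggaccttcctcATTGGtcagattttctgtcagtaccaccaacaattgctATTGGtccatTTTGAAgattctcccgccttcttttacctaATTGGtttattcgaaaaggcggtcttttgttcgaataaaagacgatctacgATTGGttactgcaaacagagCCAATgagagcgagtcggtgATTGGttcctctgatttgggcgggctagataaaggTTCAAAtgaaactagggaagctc
*Ccnb1* holds 2 CCAAT matches, and *Top2a* holds 6, with 2 matches to TTTGAA. Neither holds the E2F-type motif in this window.

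Over all 36 genes, 29 had RefSeq promoter windows, 33 in number because some genes have more than 1 start. The CCAAT box was in 22 of these 33 windows, or 66.7%, and in 33.8% of all 32851 promoter windows of the same length. TTTNNCGC was in 6 of 33, or 18.2%, against 4.3% of all, in *Cdk1*, *Cdk2*, *Cdk6*, *Mcm5*, *Mcm6* and *Mcm7*. TTTGAA was in 5 of 33, or 15.2%, against 16.0% of all. Of the 6 genes with the E2F-type motif, *Mcm5* and *Mcm6* fell and the other 4 did not pass. A match describes the letters of the window only.

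*Ccnb1* (ENSMUSG00000041431, chromosome 13, 100778650 to 100786570), the cyclin that starts mitosis with CDK1, was at 0.399, 0.282 and 0.417 FPKM in WT replicates 1 to 3 and at 1.06, 1.08 and 0.981 FPKM in KO replicates 1 to 3. The KO libraries lay close together and well above the WT libraries. The rise was 2.84-fold, from 0.366 ± 0.0733 to 1.04 ± 0.0524 FPKM (SD, n = 3 per genotype; limma log2 change 0.58 ± 0.09 SE, adjusted p = 0.0066), on 63 reads in WT and 191 in KO. It was also called with each library in turn left out (adjusted p from 0.0150 to 0.0342). *Top2a* (chromosome 11, 98992943 to 99024189), the topoisomerase that untangles replicated chromosomes, was at 0.983, 1.36 and 1.27 FPKM in WT and at 1.71, 1.95 and 1.79 FPKM in KO. Its groups did not overlap and it rose 1.51-fold (log2 fold change 0.36 ± 0.10 SE, adjusted p = 0.0371). That call was lost when any 1 library was left out (adjusted p from 0.0519 to 0.122) and in TPM (0.160).

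*Cenpa* (ENSMUSG00000029177, chromosome 5, 30666777 to 30674830), the histone H3 variant that marks centromeres, went the other way. It was at 0.990, 1.22 and 1.38 FPKM in WT and at 0.307, 0.454 and 0.353 FPKM in KO. Every WT library was above every KO library, and the fall was 3.22-fold, the largest ratio of means among the 29 genes tested (limma log2 change -0.68 ± 0.11 SE, adjusted p = 0.0066, and 0.00946 to 0.0318 with each library in turn left out). The ratio of *Cenpa* to *Top2a*, both in FPKM, was 0.897 to 1.09 in the WT libraries and 0.180 to 0.233 in the KO libraries. With *Cenpa* lower and *Top2a* higher in KO, both without overlap, this ratio had to separate the groups.

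The groups did not overlap for 3 further mitotic genes, each higher in the KO libraries, that did not pass. The spindle kinase gene *Aurka* was at 0.320, 0.537 and 0.694 FPKM in WT and at 0.957, 0.901 and 1.21 FPKM in KO (limma log2 change 0.42 ± 0.13 SE, adjusted p = 0.0526). The spindle checkpoint kinase gene *Bub1* gave 0.569 to 0.741 FPKM in WT and 0.844 to 1.16 FPKM in KO (adjusted p = 0.108), and *Ccnb2*, the second B-type cyclin gene, gave 0.991 to 1.22 and 1.32 to 1.53 FPKM (0.114). With quantile normalization these 3 were called as higher (limma adjusted p = 0.0272, 0.0328 and 0.0362). They were not called in TPM (0.119, 0.358 and 0.430) or in limma-voom (0.0900, 0.304 and 0.595). None of the fits that left out 1 library called any of them. The ratio of *Ccnb1* to *Ccnb2*, both in FPKM, was 0.254 to 0.420 in the WT libraries and 0.662 to 0.817 in the KO libraries. *Cdk1*, which encodes the partner of the B-type cyclins, overlapped between groups at 0.567 to 0.706 FPKM in WT and 0.681 to 0.987 FPKM in KO.

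*Mki67* (chromosome 7, 135689784 to 135716361), which encodes the proliferation marker Ki-67, had the widest confidence interval of the mitotic genes. It was at 5.75, 10.9 and 10.01 FPKM in WT replicates 1 to 3 and at 12.6, 6.23 and 6.33 FPKM in KO replicates 1 to 3. WT replicate 1 was below all KO libraries and KO replicate 1 above all WT libraries, the opposite of what the other 4 libraries showed. Its log2 fold change was -0.10 ± 0.32 SE (95% confidence interval -0.87 to 0.67, limma adjusted p = 0.850). Without the replicate 1 library of each group it was -0.65 (limma adjusted p = 0.00489). That fit keeps only replicates 2 and 3 of each genotype, the libraries that went the other way, so a fall had to follow. *Mki67* was 3.20 to 8.04 times the level of *Top2a* in FPKM in the 6 libraries. It had 3479 reads in WT and 3569 in KO.

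**Figure D4:**
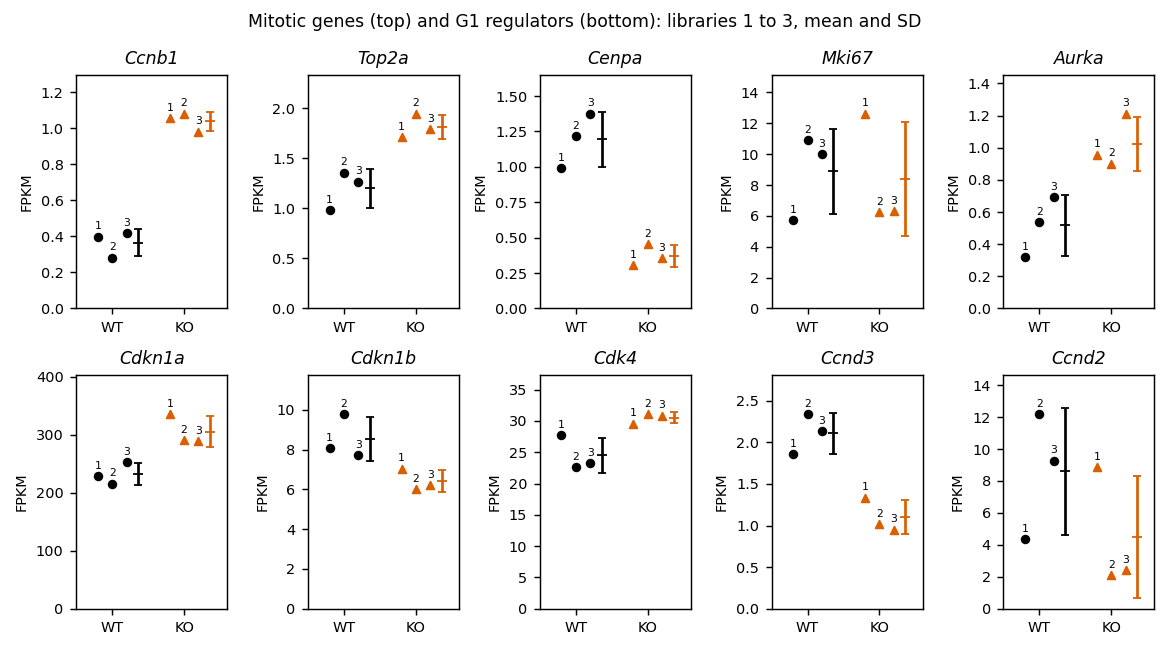
FPKM of 5 mitotic genes (top row) and 5 G1 regulators (bottom row) in each library, numbered by replicate, with mean and SD and an axis from 0 for each gene. WT replicate 1 and KO replicate 1 part from their groups in opposite directions for *Mki67* and *Ccnd2*, while the groups of the other 8 genes do not overlap.

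The 7 genes below the filter are given by reads in WT replicates 1 to 3 and then KO replicates 1 to 3. The cyclin A gene *Ccna2*, of S phase and G2, had 25, 14 and 18 and then 30, 38 and 32 reads, and *Birc5*, which encodes survivin of the chromosomal passenger complex, had 7, 8 and 12 and then 17, 18 and 20. In FPKM both were higher in every KO library than in any WT library, at 0.342 ± 0.0462 and 0.562 ± 0.0349 FPKM for *Ccna2* and 0.203 ± 0.0768 and 0.373 ± 0.0325 FPKM for *Birc5* (SD, n = 3 each). In the fit with no filter neither passed (limma adjusted p = 0.222 and 0.225). The kinase genes *Plk1* and *Aurkb* had 32 and 48 reads over the WT libraries and 31 and 46 over the KO libraries. With *Ccnd1*, *Ccne2* and *Cdkn2c* they gave adjusted p from 0.652 to 0.991 in that fit, where depth limits what could be detected. *Ccna2* shares 510 exon bases with *Exosc9* on the opposite strand.

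The microtubule genes did not pass with the deposited scaling. *Tubb5* (chromosome 17, 35833921 to 35838306), a beta tubulin gene of a family of close copies, was at 165, 157 and 169 FPKM in WT and at 169, 149.9 and 148.8 FPKM in KO (log2 fold change -0.07, limma adjusted p = 0.558). It was called as lower with quantile normalization (limma adjusted p = 0.0266), but not in TPM (0.355) or in limma-voom (0.0741). *Stmn1*, which encodes the microtubule-destabilizing protein stathmin, was at 4.33 to 5.24 FPKM in WT and 5.14 to 6.42 FPKM in KO (adjusted p = 0.167).

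Other genes of the cell cycle, in 7 lists of 141 genes, were read the same way. Of the 105 tested, 14 rose and 14 fell, together 26.7%, against 28.0% of all genes tested. In all 6 fits that left out 1 library 9 of these 28 calls were kept, and calls over all genes fell in each of those fits too. Of 17 other DNA replication genes 1 rose and 3 fell, together 23.5%, with a median log2 fold change of 0.01. *Uhrf1*, which keeps DNA methylation through replication, fell 1.80-fold, from 2.54 ± 0.367 to 1.41 ± 0.122 FPKM (SD, n = 3 per genotype; limma adjusted p = 0.0105). *Gmnn*, which encodes the licensing inhibitor geminin, and *Rpa2*, which binds single-stranded DNA, fell 2.85-fold and 1.84-fold, and *Dbf4*, the activator of the replication kinase CDC7, rose 1.44-fold, each with a call that only 1 of the 6 fits without a library kept. *Gmnn* stood at 0.160, 0.389 and 1.09 FPKM in KO replicates 1 to 3, a wide spread.

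Of 14 other mitosis genes 3 rose and 1 fell, with a median log2 fold change of 0.17. Together they are 28.6% of the 14, near the 28.0% called among all genes tested. *Kif11*, the motor of spindle poles, rose 2.38-fold, *Pbk*, a mitotic kinase gene, 2.47-fold and *Ube2c*, which marks mitotic cyclins for destruction, 1.95-fold (limma adjusted p = 0.0323, 0.0366 and 0.0398). *Racgap1*, of the division furrow, fell 2.10-fold (adjusted p = 0.0146). A further 18 of the 32 listed mitosis genes were below the filter, and each of the 4 calls was lost without at least 2 of the libraries in turn. The rises were not called in TPM (adjusted p = 0.0815, 0.116 and 0.126).

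Among 13 regulators of the RB, E2F and MYB-MuvB system, which switch the S phase and mitotic genes on and off, 4 fell and the other 9 did not pass, with a median log2 fold change of -0.12. The 4 are 30.8% of the 13, where 12.4% of all genes tested fell and 28.0% were called in either direction. *E2f3* and *Lin54* had log2 fold changes of 0.32 and 0.24 (limma adjusted p = 0.0513 and 0.0554). *E2f2*, an activator of S phase genes, fell 3.01-fold, from 0.840 ± 0.0996 to 0.279 ± 0.0522 FPKM (SD, n = 3 per genotype; limma adjusted p = 0.0109), and kept its call with each library in turn left out. *Mybl2*, *E2f6* and *Rbl2* (the last named after its value was seen) fell 2.27-fold, 1.68-fold and 1.72-fold, with calls that 1 of the 6 fits without a library kept. *E2f4*, a repressor in resting cells and the most abundant of the list, gave a log2 fold change of -0.01.

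Of 14 other brakes on the cycle 4 rose and 2 fell. The 4 are 28.6% of the 14, where 15.7% of all genes tested rose. The 2 are 14.3%, where 12.4% of all genes fell. Together they are 42.9%, against 28.0% of all genes. The antiproliferative genes *Ccng2*, *Tob2*, *Btg2* and *Btg1* (the last named after its value was seen) rose 1.92-fold, 1.61-fold, 1.57-fold and 1.55-fold. Their relatives in the list did not pass. *Tob1* was lower in every KO library than in any WT library (log2 fold change -0.43, limma adjusted p = 0.0756). *Btg3* overlapped between the groups (log2 fold change 0.21, limma adjusted p = 0.463). *Ccng2*, an unusual cyclin gene linked to arrest, went from 13.5 ± 0.893 to 26.0 ± 2.02 FPKM (SD, n = 3 per genotype; limma adjusted p = 0.00108). *Gadd45g*, a stress-induced gene, fell 4.38-fold, at 68.3, 57.7 and 77.4 FPKM in WT and at 15.7, 15.8 and 15.0 FPKM in KO (adjusted p = 1.69e-04). *Cdkn2b*, which encodes the CDK4 and CDK6 inhibitor p15, fell 2.60-fold (0.0146). Of the 6 called, *Btg2* was lost without WT replicate 2 (0.0505) and *Cdkn2b* without WT replicate 3 (0.0534).

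Of 13 tested genes of p53 and its targets, of which *Cdkn1a* is another, 1 rose and 1 fell, with a median log2 fold change of -0.15. These 2 are 15.4% of the 13, against 28.0% of all genes tested. The death effector gene *Bax* rose 1.31-fold (limma adjusted p = 0.0215, lost without WT replicate 2, WT replicate 3 or KO replicate 2 at up to 0.0730, and 0.142 in TPM). *Trp53inp1* fell 3.14-fold, from 2.91 ± 0.409 to 0.929 ± 0.152 FPKM (SD, n = 3 each; 0.00187). Of 20 cyclins and CDKs of transcription and other roles 2 rose (*Cdk17* 1.36-fold and *Ccnh* 1.39-fold) and 2 fell (*Cdk19* 1.79-fold and *Ccni* 1.22-fold). These 4 are a smaller share of the 20 than the 28.0% called among all genes tested. None of the 4 kept its call through every library left out.

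Of 14 regulators of macrophage growth and self-renewal 3 rose and 1 fell, together 28.6%, near the 28.0% called among all genes tested. *Klf4* rose 3.02-fold, at 3.58, 3.18 and 2.78 FPKM in WT and at 6.10, 11.5 and 11.2 FPKM in KO (limma adjusted p = 0.0094). *Bhlhe40*, a transcription factor gene needed for the division of peritoneal macrophages, rose 1.43-fold (0.0103, and 0.129 in TPM). *Myc*, a driver of growth, was at 10.7, 27.5 and 16.1 FPKM in WT and at 6.44, 6.90 and 6.51 FPKM in KO. It fell 2.74-fold (0.0272), with WT libraries far apart and KO libraries close together, and the call was lost without WT replicate 3, KO replicate 1, KO replicate 2 or KO replicate 3 (up to 0.0810).

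**Figure D5:**
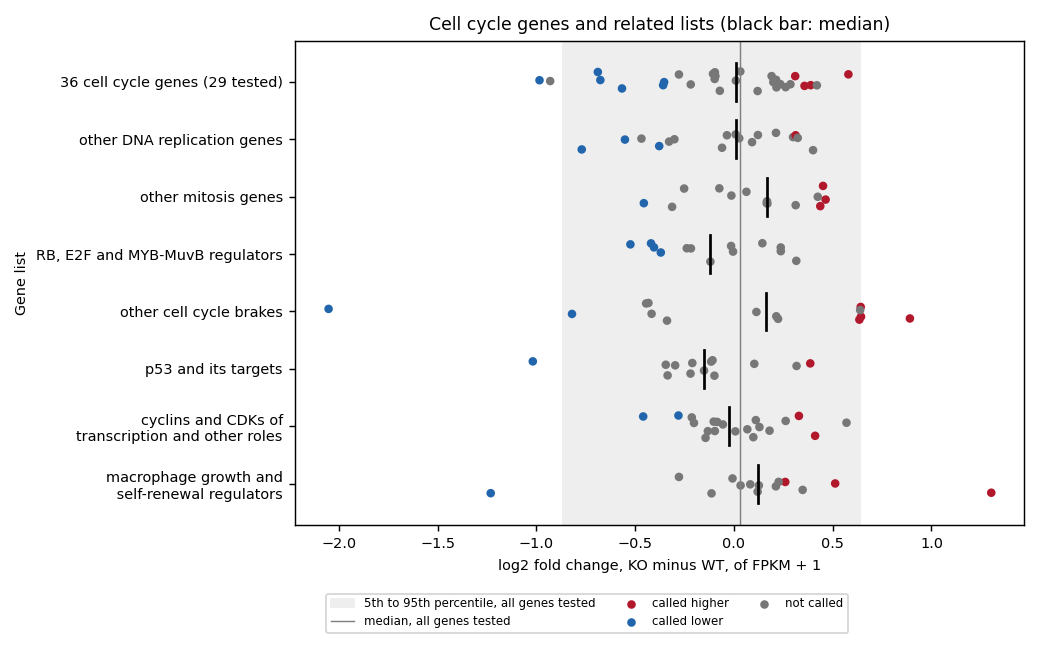
Log2 fold change of FPKM + 1, KO minus WT, of each tested gene (points) in the 36 cell cycle genes and 7 related lists, with the median of each list as a black bar and the 5th to 95th percentile of all 11689 genes tested in grey. Genes called as higher (red) and as lower (blue) occur in 7 of the 8 rows. In the RB, E2F and MYB-MuvB row all called genes fell, while 4 genes that were not called lie above 0.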

How the data were processed

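RNA of 3 WT and 3 KO libraries was measured by RNA sequencing. The authors deposited FPKM values per gene, with gene lengths and coordinates. Per the submitters' processing notes, the genome build was GRCm38 (mm10). Not given in the sources used here are the aligner, the counter, the annotation release and any strand setting. Groups and replicate numbers came from the sample titles.

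Divided by the value of 1 read in its library, FPKM times gene length came out whole for 100.0% of values above 0 (tolerance 0.05 of a read), and these whole numbers were taken as reads. Depth was 11026529 to 15724897 reads in genes per library, which limits precision for genes with few reads.

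FPKM is no count, so limma 3.58.1 in R 4.3.3 was fitted to log2(FPKM + 1), with genotype alone and an intensity trend, over the 11689 genes whose mean reached 0.5 FPKM. Benjamini-Hochberg adjusted p below 0.05 over all of these was called. Alternatives were pseudocount 0.1, no filter, a filter at 2 FPKM, TPM, quantile normalization, limma-voom on the recovered reads, robust eBayes, the replicate number as a block, and fits without libraries.

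Values in each library are given for called members, for members with a mean of at least 20 FPKM and for *Mki67*. From each related list the called genes with the largest changes, at most 3 a direction, are named. Of these, 1 gene is not reported here. Others were named after their values were seen, as *Rbl2*, *Btg1*, *Btg3*, *Tob1*, *E2f3*, *E2f4*, *Lin54* and members given in more detail. The members, lists and tests were chosen with earlier results of these data known. Gene coordinates were the same in GENCODE M21 for all 36 members. Promoter windows of 250 bases came from RefSeq (GRCm38.p6). *Ccne2*, *Ccna2*, *Aurkb*, *Stmn1*, *Ccnd1*, *Mcm4* and *Ccnd2* had no match there.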

Additional observations from a re-analysis of the deposited data

How the results depend on the processing

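The calls on *Mcm5* and *Mcm6* were kept under every alternative, that on *Cenpa* under every one in which it was tested, and that on *Ccnb1* likewise except for the replicate block. Members called higher in KO, 4 as reported, were 1 with no filter, in TPM and in limma-voom, 2 with a filter at 2 FPKM, 6 with quantile normalization and 1 to 2 without single libraries. Members called lower, 6 as reported, were 4 with no filter and in TPM, 3 with a filter at 2 FPKM, 6 with quantile normalization and in limma-voom, and 3 to 7 without single libraries. The median log2 fold change of the members was -0.0341 with no filter, -0.0683 in TPM, -0.142 in limma-voom, -0.0525 without both replicate 1 libraries and -0.0527 to 0.0542 without single ones, where limma-voom moved the median of all genes to -0.12. Of all genes, 1703 were called in TPM, 542 of them higher. In limma-voom 669 were higher, with the filter at 2 FPKM 876 were lower, and without single libraries 1763 to 3018 were called, 912 to 1681 higher and 851 to 1337 lower. Without both replicate 1 libraries 4 members were higher and 8 lower.

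Same-numbered replicates did not deviate together (correlations of -0.51, -0.19 and -0.16), and no library correlated best with its own number. With the replicate number as a block in limma, 0 members were higher and 3 lower (*Mcm5*, *Mcm6*, *Cenpa*), with 12 at an unadjusted p below 0.05, and 1083 genes were called, 479 higher and 604 lower. *Ccnb1* then had an adjusted p of 0.0538.

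Signs turned for log2 fold changes that did not pass under those settings: *Mcm3* in limma-voom (-0.0226), *Mcm4* in TPM (-0.0683), limma-voom (-0.142) and without both replicate 1 libraries (-0.0525), *Mcm7* with quantile normalization (0.00281), *Pcna* in TPM (-0.0511), with quantile normalization (-0.146) and in limma-voom (-0.127), and *Rrm1* with quantile normalization (0.0146). Without single libraries *Mcm4* ranged from -0.0613 to 0.0809, *Mcm7* from -0.218 to 0.0197, *Pcna* from -0.102 to 0.130 and *Mki67* from -0.399 to 0.0585. The causes were not tested. For genes with few reads, such as *Plk1*, depth limits what could be detected.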
